A study of Mus musculus with 3 samples.

Results

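The proteasome is the protease that degrades ubiquitin-tagged proteins, and it was described here from the messenger RNA of its subunit genes in mouse regulatory T cells. The genes were chosen by name. They are the protein-coding genes of GENCODE M21 whose symbol begins with Psma to Psmg followed by a digit, which gave 50 of 22028 protein-coding genes and of 55536 annotated genes in all. The name rule used no measured value, though it was set with earlier results of these data known. All but Psmc3ip and Psme2b are genes of proteasome subunits, activators, an inhibitor or assembly chaperones. Psmc3ip is a meiotic recombination factor that only shares the start of its name with the ATPase Psmc3, and Psme2b is the near copy of the activator gene Psme2.

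PolyA-selected RNA was sequenced in 3 libraries, called library 1, 2 and 3 by their technical replicate numbers. All come from 1 biological replicate of 1 donor, a male adult mouse of 16 weeks, and form 1 group of inflammation-experienced regulatory T cells. The strain is given as Foxp3GFP-DTRCD4CreERT2R26tdTomato, a name that joins a GFP and diphtheria toxin receptor at Foxp3, a tamoxifen-dependent Cre under CD4 and a tdTomato reporter. All libraries share these alleles. Whether tamoxifen or toxin had been given, and how the cells were sorted, is not stated in the labels. There was no other condition, so levels are described and genes are compared with each other within libraries. The SD over the 3 libraries measures technical spread only.

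Libraries 1, 2 and 3 held 20942759, 18402348 and 17494800 expected counts on annotated genes. Library 3 stood apart from the others over the whole series, also with 5.36% of TPM on mitochondrial genes against 3.92% and 3.97%. For the catalytic gene pairs, the count of detected genes and the leading transcript share, results with a library left out are also given. The same holds for the test of the proteasome genes between libraries. Other results, such as role medians and those of further gene lists, are given with all libraries only. The 5 regulatory T cell markers (Foxp3, Il2ra, Ctla4, Ikzf2, Tnfrsf18) and the 3 T cell markers (Cd3e, Trac, Cd4) were all above 1 TPM (a level scaled for transcript length and depth) in each library. Markers of other cells were also seen. The 4 B cell markers summed to 67.17 to 77.82 TPM, the 4 macrophage markers to 32.22 to 43.69 TPM, and the 2 CD8 T cell markers to 16.69 to 22.33 TPM. The CD8 sum was nearly all Cd8b1, with a mean of 17.94 TPM. Cd8a stood at 0.94, 1.24 and 0.87 TPM and was not above 1 TPM in each library. None of the 4 dendritic cell markers was detected. The 3 erythroid markers were high, with a sum of 609.2 to 1008 TPM that was nearly all globin RNA. The part of other cells in the proteasome levels was not tested. In RNA from bulk cells, fewer cells of a type and less RNA per cell cannot be told apart.

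The core of the proteasome, the 20S particle, is a barrel of stacked rings. The outer rings are made of alpha subunits (Psma genes) that gate the entrance, and the inner rings of beta subunits (Psmb genes), among which Psmb5, Psmb6 and Psmb7 carry the cutting sites. In cells of the immune system, and in others after interferon gamma, Psmb8, Psmb9 and Psmb10 take the places of Psmb5, Psmb6 and Psmb7 to form the immunoproteasome, which favours peptides that fit MHC class I. The 19S cap (Psmc and Psmd genes) binds ubiquitin chains, unfolds the substrate and feeds it in, and the activators encoded by Psme genes open the barrel without ubiquitin.

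Pieces of sequence that bear on the readings below are shown first. Psme2 on chromosome 14 and Psme2b on chromosome 11 share most of their coding sequence, so that short reads can be split between them only where they differ. Both GENCODE coding sequences are 717 bases long and differ at 5 bases, which makes them 99.3% identical. Bases 464 to 543 of each, counted from the A of the start codon, hold 3 of the 5 differences, which are in capitals.
Psme2: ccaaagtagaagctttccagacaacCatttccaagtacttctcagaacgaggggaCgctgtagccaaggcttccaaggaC
Psme2b: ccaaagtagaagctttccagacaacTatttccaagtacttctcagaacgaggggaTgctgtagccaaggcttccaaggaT

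Promoter windows on GRCm38.p6 (mm10), from 250 bases before to 50 bases after the RefSeq start, were found for 42 of the 50 genes. They were searched on both strands for the letters of 4 motif types: GAAA, 2 free bases and GAAA for an interferon-stimulated response element (ISRE), TTCNNNGAA for a STAT site (GAS), TGACNNNGC for the antioxidant response element through which the proteasome regulators Nfe2l1 and Nfe2l2 act, and CCAAT. The 30-base windows below belong to 5 of the catalytic and activator genes, with the matched letters in capitals, read along the gene's strand. Psmb5 and Psmb6, which are constitutive, hold the antioxidant type, Psmb8 holds the GAS type, Psme1 the ISRE type and Psmb9 a reversed CCAAT. Psmb7 was not among the genes searched. For Psmb8 and Psmb9, all 250 bases before the RefSeq start lie in GENCODE exons. Both are therefore absent from the exon-free stretches printed further below. Matches in Psme4 (antioxidant type) and in Psme3 and Psmb11 (CCAAT) were also found and are not printed.
Psmb5: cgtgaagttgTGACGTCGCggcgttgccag
Psmb6: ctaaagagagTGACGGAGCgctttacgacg
Psmb8: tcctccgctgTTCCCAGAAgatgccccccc
Psmb9: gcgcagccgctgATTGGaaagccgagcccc
Psme1: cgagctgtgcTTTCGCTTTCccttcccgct

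These windows lie at chr14:54618023-54618052 (minus strand), chr11:70525338-70525367 (plus), chr17:34198088-34198117 (plus), chr17:34187321-34187350 (minus) and chr14:55578493-55578522 (plus). The ISRE type was found in 5 of the 42 windows (Psmb3, Psmd4, Psmd9, Psme1, Psmg4) and in 3.99% of the 27025 promoters searched. The GAS type was found in 3 (Psmb8, Psmd2, Psmg1) and in 9.55% of all, the antioxidant type in 6 (Psmb5, Psmb6, Psmc6, Psmd12, Psmd9, Psme4) and in 14% of all, and CCAAT in 15 and in 41.1% of all. A match is a run of letters, and binding was not measured.

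The stretches upstream of 3 catalytic genes, as far as they lie outside GENCODE exons, show the constitutive Psmb5 and Psmb6 beside the immunoproteasome gene Psmb10. They are 223 bases at chr14:54618023-54618245 (minus), 250 bases at chr11:70525107-70525356 (plus) and 198 bases at chr8:105938445-105938642 (minus). The antioxidant-type match is in capitals in the former genes, and none of the 4 motif types was in the searched window of Psmb10.
Psmb5: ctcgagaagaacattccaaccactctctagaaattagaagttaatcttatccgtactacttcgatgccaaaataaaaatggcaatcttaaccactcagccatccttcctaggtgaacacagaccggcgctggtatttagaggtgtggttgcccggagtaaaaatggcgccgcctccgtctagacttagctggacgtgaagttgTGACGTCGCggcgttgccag
Psmb6: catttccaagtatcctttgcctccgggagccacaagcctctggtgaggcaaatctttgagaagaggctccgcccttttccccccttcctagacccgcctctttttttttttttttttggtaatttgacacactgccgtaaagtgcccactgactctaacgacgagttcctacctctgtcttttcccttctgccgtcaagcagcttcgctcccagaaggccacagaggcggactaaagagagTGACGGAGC
Psmb10: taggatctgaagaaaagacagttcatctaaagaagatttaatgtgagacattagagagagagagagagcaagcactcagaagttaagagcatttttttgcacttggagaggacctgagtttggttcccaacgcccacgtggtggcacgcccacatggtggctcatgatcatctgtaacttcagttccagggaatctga

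Nearly the whole proteasome was present in these cells. Of the 50 genes, 48 reached 1 TPM in each library, against 47.4% of all protein-coding genes, and 32 reached 100 TPM in each library, against 6.63% of all. Together the 50 genes summed to 10930, 10320 and 11090 TPM, or 1.08% of the RNA by this measure. The median over all protein-coding genes was 0.85 TPM, and over those detected it was 25.61 TPM. The plot of levels by role shows each gene in each library.

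**Figure D1:**
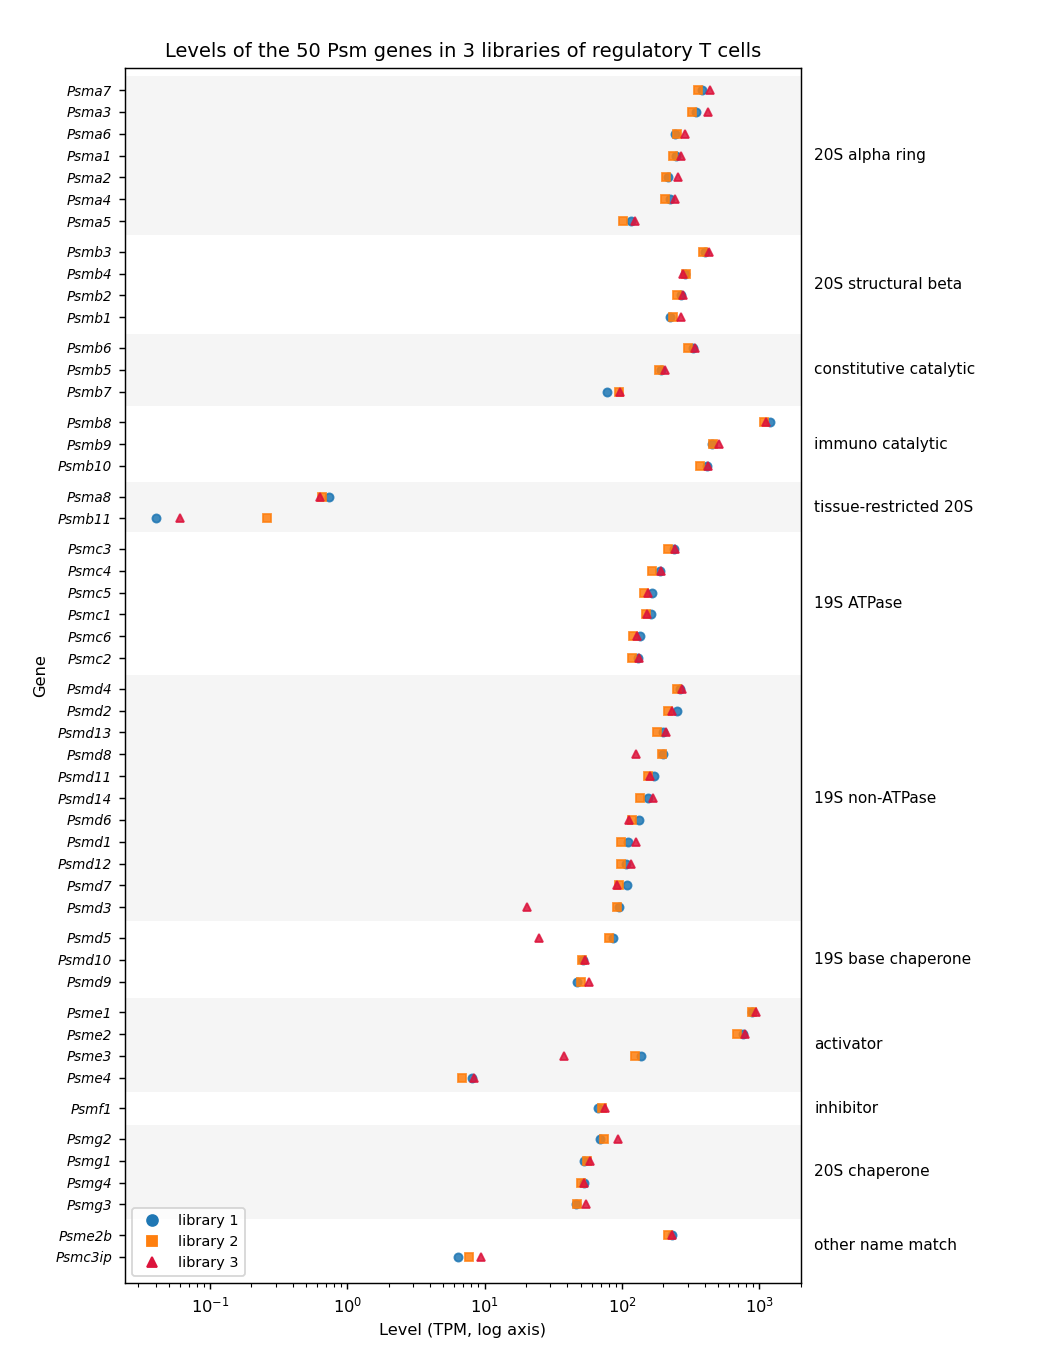
Level of each of the 50 genes (TPM, log axis) in library 1 (circles), library 2 (squares) and library 3 (triangles), ordered by role and, within a role, by mean level. Psmb8 and Psme1 lie farthest to the right, Psma8 and Psmb11 lie under 1 TPM, and the triangles of Psmd3, Psmd5 and Psme3 lie well to the left of the other symbols.

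The alpha ring genes were all well above the median detected gene. The median of Psma1 to Psma7 was 249.1 ± 16.9 TPM (SD, n = 3 libraries), from Psma5 at 114.4 to Psma7 at 391.9 TPM, a ratio of 3.43. The structural beta genes Psmb1 to Psmb4, which have no cutting site, had a median of 275.6 ± 5.13 TPM. Psmb1 was lowest at 242.4 and Psmb3 highest at 407.3 TPM.

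Among the catalytic genes the immunoproteasome forms were the higher. Psmb8 stood at 1197, 1088 and 1111 TPM in libraries 1, 2 and 3, rank 80 of all protein-coding genes. Psmb9 stood at 453.1, 461.6 and 505.2 TPM. Psmb10 stood at 414.3, 368.9 and 424.2 TPM. Psmb8 was well above both in every library, and the values of Psmb9 and Psmb10 did not overlap but lay close, with a log2 ratio of 0.23 ± 0.10.

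The constitutive genes followed in the order Psmb6, Psmb5, Psmb7. Psmb6, of the caspase-like site, stood at 329.5, 303.8 and 339.9 TPM. Psmb5, of the chymotrypsin-like site, stood at 192.5, 185.8 and 206.0 TPM. Psmb7, of the trypsin-like site, was lowest at 78.14, 94.6 and 97.08 TPM. No constitutive gene overlapped any immunoproteasome gene in any library.

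Each immunoproteasome gene was then set against the gene whose place its protein takes. A pair was called different where the log2(TPM + 1) ratio had the same sign in all libraries and exceeded both 2 SD and 1. Psmb8 exceeded Psmb5 by 2.63, 2.54 and 2.43 on the log2 scale (mean 2.53 ± 0.10, called), so that 85.3% ± 0.9 of the pair's TPM was Psmb8. Psmb10 exceeded Psmb7 by 2.39, 1.95 and 2.12 (mean 2.15 ± 0.22, called), a share of 81.7% ± 2.29. Psmb9 exceeded Psmb6 by only 0.46, 0.60 and 0.57 (mean 0.54 ± 0.08), which did not reach the limit, and its share was 59.3% ± 1.27. The immunoproteasome genes summed to 2065, 1918 and 2040 TPM against 600.2, 584.2 and 642.9 TPM for the constitutive genes, a share of 76.7% ± 0.72. No p-value is given, since 3 libraries cannot give a two-sided sign-flip p under 0.25.

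This order depended on which transcripts were counted. GENCODE lists transcripts of a gene that keep an intron or are marked for nonsense-mediated decay, and these do not make the full subunit. The protein_coding type also holds short transcripts, and whether those make the full subunit was not tested. Psmb9-202, of 433 bases, held 23.5% of its gene's TPM and 8.95% of its expected counts. Psmb8-204, of 358 bases, held 11.5% and 3.86%. Over transcripts of the protein_coding type alone, Psmb8 stood at 690.8, 580.4 and 572.0 TPM and stayed above Psmb5, with a log2 ratio of 1.65 and a share of 75.8%. Psmb9 stood at 180.2, 191.5 and 196.5 TPM and came to lie below Psmb6, with a log2 ratio of -0.55 and a share of 40.5%. Psmb10 stood at 83.69, 83.12 and 85.61 TPM beside 76.91, 92.42 and 94.66 TPM for Psmb7, so that the log2 ratio was -0.06, the share 49.0% and the call was lost. Only the excess of Psmb8 over Psmb5 kept its direction and call on this measure. It turned when the longest protein_coding transcript of each gene was counted alone, a setting added after the data were seen, with a log2 ratio of -4.08 and a share of 5.23%. For Psmb8 that transcript is Psmb8-201, at 10.67 TPM.

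**Figure D2:**
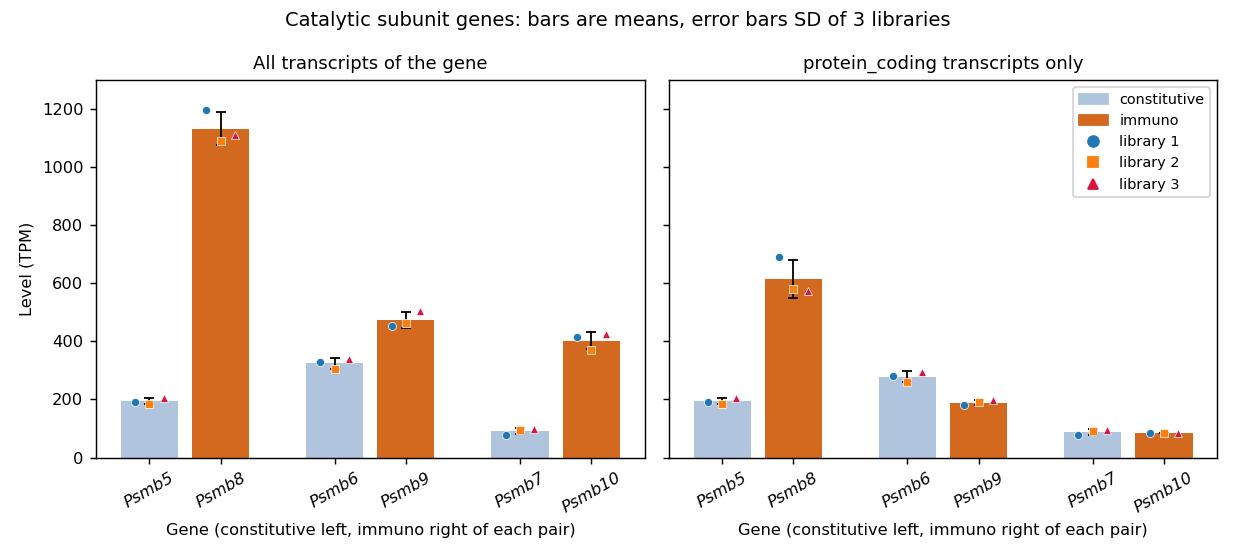
Level (TPM) of the catalytic subunit genes over all transcripts (left) and over protein_coding transcripts alone (right), with bars for the mean, error bars for the SD of 3 libraries and symbols for the libraries. Each constitutive gene stands left of the immunoproteasome gene that can replace it. The immunoproteasome bar is taller in every pair on the left, and only for Psmb8 on the right.

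The transcript tables show where the difference lies. The share of a gene's TPM on protein_coding transcripts was 54.2% ± 3.18 for Psmb8, 40.0% ± 1.32 for Psmb9 and 21% ± 1.35 for Psmb10. For Psmb5, Psmb6 and Psmb7 it was 100%, 85.7% ± 1.16 and 97.9% ± 0.485. All immunoproteasome genes lay below all constitutive genes in this share.

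The leading transcript of a gene is the one with the highest mean TPM, and it was of a type other than protein_coding in 5 of the 48 detected genes. For Psmb8 it was Psmb8-205, which retains an intron, with 40.4%, 44.0% and 45.9% of the gene's TPM, just above the coding Psmb8-203 with 42.6%, 41.9% and 40.5%. Which of these led differed between the libraries, Psmb8-203 in library 1 and Psmb8-205 in libraries 2 and 3. For Psmb9 it was Psmb9-207, marked for nonsense-mediated decay, with 37.8% ± 2.24, and for Psmb10 it was Psmb10-205, which retains an intron, with 39.8% ± 2.57.

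The other members of this kind were Psmb4 and Psme1. For the structural beta gene Psmb4 the leader was Psmb4-202, which retains an intron, with 49.0% ± 4.46. For the activator gene Psme1 it was Psme1-209, marked for decay, with 23.1% ± 1.9. By expected counts, which are not divided by length, 3 genes kept a leader that is not protein_coding (Psmb4, Psmb8, Psmb9).

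Such shares were not particular to the proteasome. Under 50% of the TPM lay on protein_coding transcripts in 6 of the 48 genes (12.5%: Psma3, Psmb4, Psmb9, Psmb10, Psmc6 and Psme1) and in 16.2% of 10436 detected protein-coding genes. The median share of the leading transcript was 76.4% ± 2.45 over the 48 genes. These shares come from reads assigned by a model among overlapping transcripts, and RNA that keeps an intron was not measured separately.

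**Figure D3:**
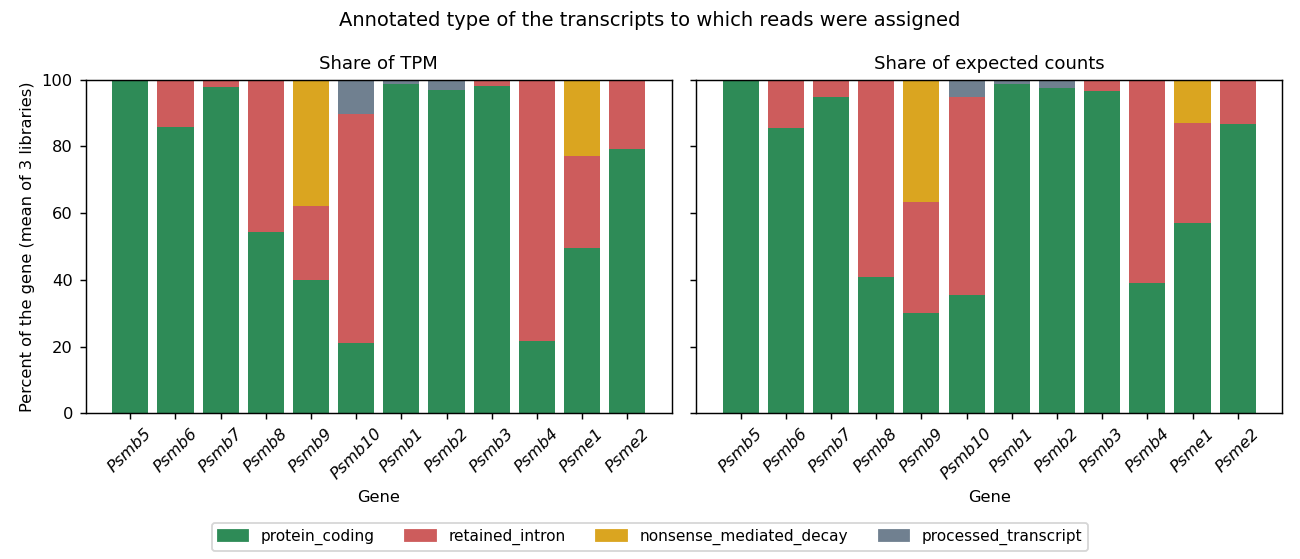
Mean percent of a gene's TPM (left) and of its expected counts (right) over 3 libraries, by the annotated type of the transcript, for the catalytic and structural beta genes and the activator genes Psme1 and Psme2. Psmb5, Psmb7, Psmb1, Psmb2 and Psmb3 are almost wholly protein_coding, while Psmb8, Psmb9, Psmb10, Psmb4 and Psme1 carry large shares of retained introns or decay transcripts.

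The tissue-restricted core subunits were near or at the limit of detection. Psma8, the alpha subunit of the testis, stood at 0.73, 0.65 and 0.63 TPM on 9, 5 and 11 expected counts, just under the limit of 1 TPM. Psmb11, the catalytic subunit of the thymoproteasome in cortical thymic epithelium, stood at 0.04, 0.26 and 0.06 TPM on 2, 6 and 3 expected counts, and the second gene table listed it at 0 in each library. A count of 3 in a library corresponds to 0.060, 0.129 and 0.0592 TPM of Psmb11. Among the markers of cortical thymic epithelium, Krt5 and Krt8 were at 0 and Foxn1 and Prss16 were below 1 TPM, and none of the 3 male germ cell markers (Ddx4, Sycp3, Dmc1) was detected. Psmb11 lies 3410 bases from Psmb5 on chromosome 14.

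The 19S cap genes had lower role medians than the core genes, though their ranges overlapped. The ATPases Psmc1 to Psmc6, which unfold the substrate, had a median of 154.5 ± 9.14 TPM, from Psmc2 at 126.8 to Psmc3 at 232.9 TPM. The 11 other cap subunits had a median of 139.4 ± 14.6 TPM. Psmd4, a ubiquitin receptor, was highest at 262.8 TPM, and Psmd3, a scaffold subunit of the lid, lowest at 68.85 TPM, a mean that includes a low value in library 3.

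Assembly factors were lower again. Psmd5, Psmd9 and Psmd10, the chaperones of the ATPase ring, had a median of 52.23 ± 1.43 TPM. Psmg1 to Psmg4, which assemble the alpha ring, had a median of 54.1 ± 2.03 TPM, from Psmg3 at 48.96 to Psmg2 at 78.88 TPM, with Psmg1 at 55.62 and Psmg4 at 52.12 TPM. Psmf1, an inhibitor of the core, stood at 66.83, 71.81 and 75.01 TPM.

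The activators spanned the widest range. Psme1 stood at 888.6, 890.8 and 943.6 TPM, and Psme2 at 757.8, 683.7 and 782.2 TPM. Their proteins form the ring called PA28 that interferon gamma induces, and their log2 ratio was 0.29 ± 0.08, which was not called. Psme3, which forms the nuclear PA28 ring, stood at 138.3, 124.8 and 38.04 TPM, with library 3 far below the others. Psme4, the large activator PA200, was lowest at 8.12, 6.83 and 8.38 TPM.

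The level of Psme2 depends on how reads are shared with Psme2b, as the sequences printed above show. Psme2b stood at 230.4, 217.3 and 230.8 TPM. Its span of 837 bases on the annotation equals the length of its transcript, so it has no intron there. Of the 50-base windows of the leading transcripts, 62.1% of those of Psme2 and 69.3% of those of Psme2b occur in another gene. The part of Psme2 reads in the level of Psme2b was not tested.

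Such sharing touched other members unequally. A 50-base window stands for a read, and 27 of the 50 leading transcripts shared none with a transcript of another gene, while 17 shared over 5%. Psma3 shared 78.5%, every window of it also in the pseudogene Gm13835, which stood at 166, 154 and 169 TPM. Psmb5 shared 57.1%, mostly with the pseudogene Gm3375 at 0.69, 0.48 and 0.80 TPM, Psmb7 shared 28.1% with Nek6, and Psmb8 24.3% with the antisense gene Gm20496. Psmb9 and Psmb10 shared none and Psmb6 2.67%. No window was shared between any of the 6 catalytic genes.

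The second gene table held whole-number counts, and for the proteasome genes these were a varying part of the expected counts. They came to 6.11% for Psma3, 8.39% for Psme2, 8.46% for Psmb3 and 12.5% for Psmb8. They came to 20.4% for Psmb5, 20.6% for Psmb9, 38.7% for Psmb10, 48.9% for Psmb7 and 84.2% for Psme4. Among the 48 detected genes, Psma3, Psme2 and Psmb3 had the lowest of these parts. In this table, counts scaled for depth alone gave Psmb8 79.6%, Psmb9 53.8% and Psmb10 69.8% of their pairs, and the called pairs were the same as above.

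**Figure D4:**
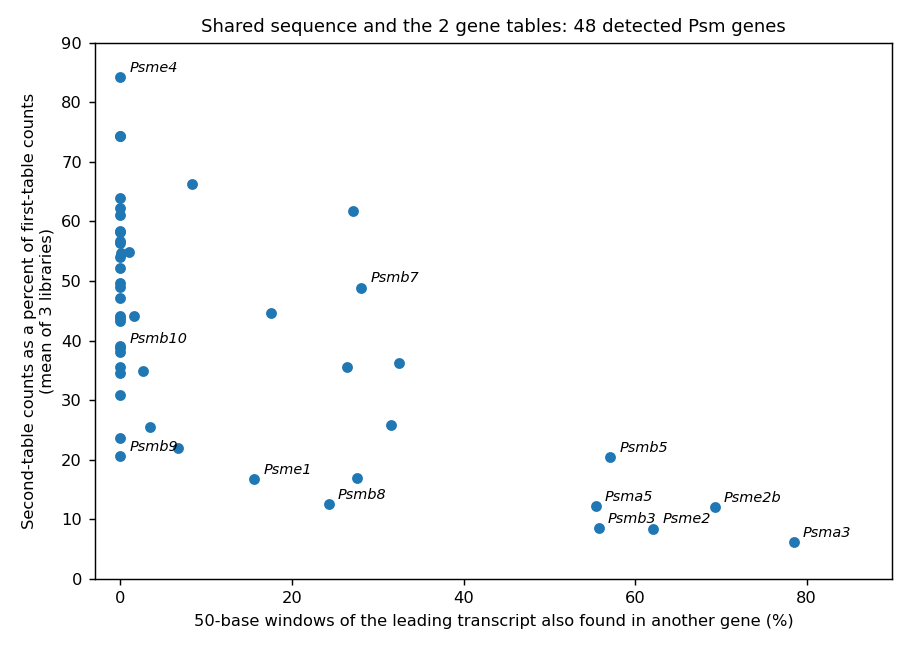
Counts of the second gene table as a percent of the first table's expected counts (mean of 3 libraries), against the percent of 50-base windows of the leading transcript that also occur in another gene, for the 48 detected genes. All 6 genes with over 50% shared windows lie at 20.4% or lower, and genes with no shared window spread from 20.6% to 84.2%.

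The libraries were compared by a chi-square test of TMM-scaled counts against Poisson sampling, with p-values adjusted by Benjamini-Hochberg over all 14877 genes tested. Of the 48 proteasome genes tested, 43 differed between libraries, against 63.9% of all genes. Most of these differences were small. Over 1.5 times between the highest and the lowest library were 5 of the 48, against 32.1% of all. At a mean count of 500 or more, 41 of 45 differed, against 83.4% of 6223 protein-coding genes, and 4 of 45 by over 1.5 times, against 25.4%. Without library 3, 20 of the 48 differed between libraries 1 and 2, against 30.2% of all genes, and none of the 20 by over 1.5 times. Psmb8 (adjusted p = 0.052), Psmd10 (0.38), Psmg1 (0.097), Psmg4 (0.86) and Psme2b (0.18) did not pass the test.

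Among genes that passed the test, library 3 held the highest value in 32 of the 48, against 24.3% of all tested, and library 2 the lowest in 25, against 16.5%. Relative to the mean of libraries 1 and 2, library 3 was higher in 41 of the 48 genes and lower in 7. Over all genes tested it was higher in 51.0%. The median log2 difference was 0.14 over the 48 genes and 0.01 over all genes tested. The 7 alpha ring genes were all higher, by 0.19 to 0.33. Psmb8 differed by 0.02, Psmb9 and Psmb10 by 0.15 each, and Psmb5, Psmb6 and Psmb7 by 0.14, 0.12 and 0.20.

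The opposite was seen in a few genes. Library 3 was lowest in 6 of the 48 genes, against 29.8% of all, and lay at least 3 times below the mean of libraries 1 and 2 in Psmd3, Psmd5 and Psme3, against 5.12% of all. Psmd3 had 2443, 2392 and 540.4 TMM-scaled counts, a log2 difference of -2.16 (chi-square adjusted p = 8.3e-275). Psme3 had 4118, 3839 and 1123 (-1.82), and Psmd5 had 2117, 1980 and 589.2 (-1.80, chi-square adjusted p = 3.2e-192). In each, libraries 1 and 2 were close and library 3 alone was low. Psmd8, a lid subunit, followed with 2922, 2867 and 1830 (-0.66).

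The second gene table, scaled by TMM in the same way, gave log2 differences of -1.83 for Psmd3, -1.58 for Psmd5 and -1.35 for Psme3, which were again large, and a smaller -0.28 for Psmd8. Psmd3 went from 94.56 and 91.54 to 20.44 TPM, while Psmd12, of the same lid, stood at 106.1, 97.6 and 116.0 TPM. Among the lower genes, Psmc3ip stood out in the first table with 80.74, 107.8 and 137.2 scaled counts, where library 1 was lowest. The second table gave it 60.57, 56.73 and 79.59, with library 2 lowest, which did not pass the test (chi-square adjusted p = 0.16). Psmc3ip shared 27.1% of its 50-base windows with Mlx, which stood at 93.2, 85.7 and 94.6 TPM. The part of Mlx reads in its level was not tested.

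Local GC content moved with the deviation of library 3. It was measured in the leading transcript as the peak GC percent over windows of 200 bases. Over the 48 proteasome genes Spearman's rho was -0.39, and over 9305 protein-coding genes whose mean count reached 100 it was -0.54. Genes share libraries and are not independent points. The median of the proteasome genes was 61.5% against 65.0% for all.

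Psmd3 (74.5%), Psme3 (76.0%) and Psmd8 (70.5%) were among the higher values. Psme4 had the highest at 87.0% and Psmg1 had 71.5%, and neither was low in library 3 (log2 differences of 0.33 and 0.13). Psmd5 had 52.0% in its leading transcript Psmd5-202, but 70.5% in Psmd5-201, the leader by counts. The same switch took Psme1, which was higher in library 3 (0.17), from 59.0% to 70.5%. After removal of the trend, the differences were -1.26 for Psmd3, -0.97 for Psme3, -1.95 for Psmd5 and -0.13 for Psmd8. They were 0.81 for Psmg1 and 0.17 for Psme4. The removal thus lowered Psme4, as it lowered Psma3 from 0.33 to 0.17 at a GC percent of 50.5%. The fitted trend therefore did not fall over the whole GC range, which a single rank correlation does not show. The value for Psmd5 was taken at the 52.0% of Psmd5-202, and none was computed at the 70.5% of Psmd5-201. The trend and its removal were chosen after the data were seen, and the part of GC content in these drops was not tested further.

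**Figure D5:**
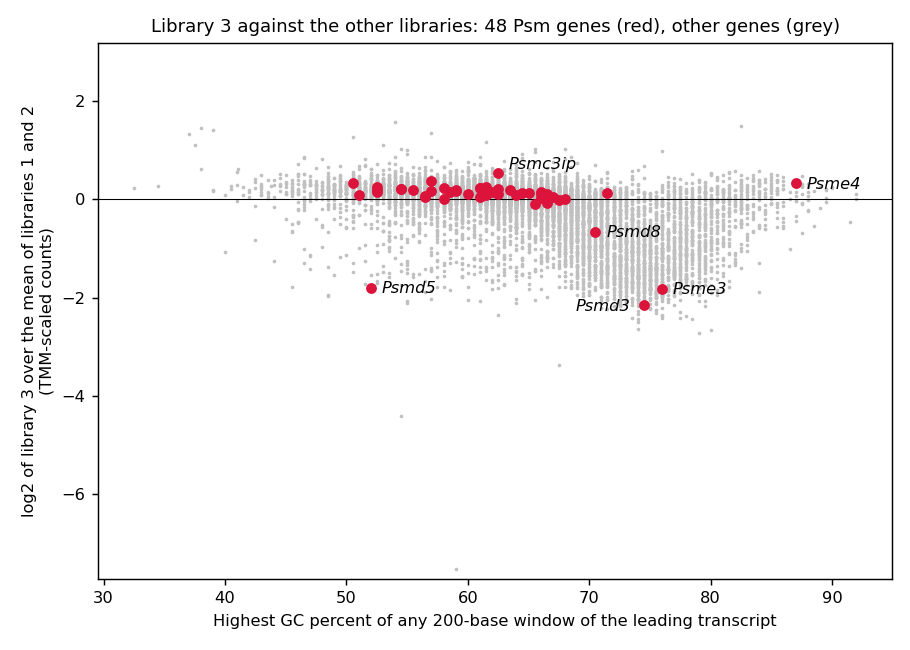
Log2 ratio of TMM-scaled counts in library 3 to the mean of libraries 1 and 2, against local GC percent (the peak over windows of 200 bases in the leading transcript), for 48 proteasome-named genes (red) and 9305 protein-coding genes (grey). Most red points lie a little above 0, and Psmd3, Psme3, Psmd5 and Psmd8 lie below the other red points.

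Genes that work with the proteasome were taken from a fixed list of 25, of which 23 were found by name, and all 23 were at 1 TPM or more in each library. Ubb, which encodes ubiquitin, was highest at 2364 TPM, Rps27a, which encodes ubiquitin joined to a ribosomal protein, stood at 443.5 TPM, and the shuttle factor Ubqln2 was lowest at 2.303 TPM. Pomp, the maturation factor of the core, stood at 337.3, 310.2 and 380.5 TPM. Sem1, a small lid subunit, stood at 118.8 TPM. The test between libraries called 20 of the 23, against 63.9% of all genes tested, with library 3 lowest in 9, against 29.8%.

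Nfe2l1, the factor that raises proteasome genes when the proteasome is short, stood at 57.04, 54.57 and 23.82 TPM, and Adrm1, a ubiquitin receptor of the cap, at 144.3, 122.4 and 70.49 TPM. Both were low in library 3, by -1.31 and -0.97 on the log2 scale. Their highest local GC percent was 72.0% and 76.5%, and its part was not tested.

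All 7 genes of the interferon and peptide list were detected. All 7 differed between libraries, as did 83.4% of protein-coding genes with a mean count of 500 or more. Irf1, a factor that acts on Psmb8, Psmb9 and Tap1, stood at 427.3, 337.4 and 377.0 TPM. Nlrc5, which drives MHC class I genes, stood at 252.4, 254.1 and 244.5 TPM. Tapbp, which joins the peptide transporter to MHC class I, had a mean of 549.8 TPM and Erap1, a peptide trimming enzyme, was lowest at 123.1 TPM. Tap2, a subunit of that transporter, stood at 414.6, 341.5 and 351.5 TPM.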

How the data were processed

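The authors deposited, for each library, gene and transcript tables of expected counts, of TPM and of FPKM (levels scaled for length and depth), and the percent of a gene's TPM on each transcript, for mm10 and GENCODE M21, per the file headers and the deposited text. A second deposited gene table holds whole-number counts for GENCODE M4. The labels and files used here do not name the aligner or the counting rules. The libraries held 17494800 to 20942759 expected counts, and 5056487 to 6339932 counts in the second table; intervals on counts would cover counting error only.

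Rows that are no annotated gene (26345 of 81881) were left out. Expected counts were rounded, and genes averaging 10 counts or more were tested against Poisson sampling with edgeR 4.0.16 TMM factors (chi-square, 2 degrees of freedom, Benjamini-Hochberg threshold 0.05), after the script was tested on simulated data. DESeq2 1.42.0 gave alternative factors and dispersions. Ratios use a pseudocount of 1 TPM, which understates those of low genes. The GC trend was a lowess curve (fraction 0.3). R 4.3.3, Python 3.11.15 and statsmodels 0.14.6 were used.

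Replicate numbers and the group come from the labels. The name rule for the members used no measured value, but members, lists and tests were chosen with earlier results of these data known. Named were the catalytic, activator, inhibitor, chaperone and tissue-restricted genes, the extremes of each other role, the largest library deviations, leaders that are not protein_coding, and fixed genes of 2 lists, some of which are not reported here; Psmd12, Psmd8, the pseudogenes and members named for shared reads, motifs or GC were named after their values were seen. A comparison of the proteins was planned but not made. Alternatives were other pseudocounts, limits, units, transcripts, tables, scalings and filters, and leaving out each library.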

Additional observations from a re-analysis of the deposited data

How the results depend on the processing

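Alternatives were run 1 at a time. No paired analysis was possible because the series has 1 group. The excess of Psmb8 over Psmb5 and of Psmb10 over Psmb7 kept its direction and call with pseudocounts of 0.1 and 5 TPM. Without each library both also kept them, and the log2 ratios ran from 2.48 to 2.59 and from 2.03 to 2.25. Counts scaled for depth alone kept them too. The log2 ratios were then 2.66 and 1.53 in the first gene table, and 1.95 and 1.2 in the second. FPKM gave the main values again, but it differs from TPM by a constant factor within a library. It is therefore no separate check of a ratio. Psmb9 over Psmb6 stayed uncalled under these settings. With protein_coding transcripts alone, log2 ratios turned to -0.55 for Psmb9 over Psmb6 and to -0.06 for Psmb10 over Psmb7, and shares were 75.8% for Psmb8, 40.5% for Psmb9 and 49.0% for Psmb10. With the longest protein_coding transcript alone, a setting added after seeing the data that keeps 1 isoform a gene, log2 ratios were -4.08, -1.86 and -0.06, and shares 5.23%, 21.5% and 49.0%. Counts scaled for depth alone gave shares of 86.4%, 66.2% and 74.5% in the first table and 79.6%, 53.8% and 69.8% in the second.

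The count of detected genes was 46 to 49 over all limits from 0.5 to 10 TPM, FPKM and left-out libraries. Between libraries, 43 of 48 genes differed (63.9% of all), 20 to 36 with a library left out (30.2% to 53.9% of all), and 34 to 46 under other scalings, filters and the second table (29.4% to 76.0% of all). With the GC trend removed it was 31 of 48, against 73.2% of the 9307 genes in that setting. This is a smaller set than the 14877 genes behind the 63.9%. The members' share then lay below that of the genes in the same setting. A DESeq2 gene-wise dispersion above 0.01 was found for 15 of 48, against 58.1% of all 14877 genes, so the members' share is also below. Neither comparison was matched to the members' count levels. The cause of these differences was not tested.

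In FPKM the role medians were 162.4 (alpha ring), 179.3 (structural beta), 126.9 (constitutive), 308.5 (immunoproteasome), 100.4 (ATPases), 90.4 (other cap subunits), 34.0 (cap chaperones), 273.4 (activators) and 35.23 (core chaperones), since FPKM is on another scale. With protein_coding transcripts alone they were 221.8, 248.6, 194.8, 189.4, 135.5, 121.8, 49.27, 272.3 and 49.18 TPM in that order, so the immunoproteasome median fell to that of the constitutive genes. Without mitochondrial genes, 290.4 TPM was found for the structural beta genes, 205.3 for the constitutive genes, 55.06 for the cap chaperones and 57.03 for the core chaperones. The leading transcript's median share was 83.0% by expected counts and 75.1% to 77.6% with a library left out. Counts under 12 limit Psma8 and Psmb11.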

Other observations

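Psmb8, Psmb9, Tap1 and Tap2 lie together on chromosome 17. Psmb9 and Tap1 face opposite ways and overlap by 212 bases, Psmb8 begins 495 bases after Tap1, and Tap2 lies 2072 bases from Psmb8. In the first gene table these neighbours did not move together between the libraries. Tap1 stood at 445.8, 369.3 and 180.8 TPM, lowest in library 3, with a log2 difference of -1.08 from the mean of libraries 1 and 2 in TMM-scaled counts. Psmb9 was highest in library 3 (0.15) and Psmb8 stood level (0.02). In the second gene table Psmb8 and Psmb9 were both higher in library 3, by 0.13 and 0.15. Tap1 had 3966, 3645 and 2628 unscaled counts there, again lowest in library 3. Library 3 also had the fewest counts in that table, 5056487 against 6339932 and 5775622 in libraries 1 and 2. The unscaled counts therefore overstate the drop of Tap1. No scaled value was computed for it there, so its size cannot be set beside the scaled differences above. The highest local GC percent was 70.5% in Tap1, and its part was not tested.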
